A study of Mus musculus with 40 samples.

Results

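The 46 genes described here make up the machinery of the cell division cycle, and their transcript levels were followed through all 40 libraries of a mouse study of branching lung organoids. They were selected by symbol, and all 46 were found in each of the 5 deposited tables, which list 55260 to 55286 gene symbols. By role, 16 belong to DNA replication (Mcm2, Mcm3, Mcm4, Mcm5, Mcm6, Mcm7, Mcm10, Cdc6, Cdt1, Cdc45, Gins2, Pcna, Uhrf1, Rrm1, Rrm2 and Tyms). A further 23 belong to mitosis (Cdk1, Ccna2, Ccnb1, Ccnb2, Mki67, Top2a, Aurka, Aurkb, Plk1, Bub1, Bub1b, Pbk, Birc5, Cenpa, Cenpe, Cenpf, Kif11, Kif20a, Kif23, Tpx2, Nusap1, Cdc20 and Ube2c). The other 7 act in G1 or control the cycle (Ccnd1, Ccnd2, Ccne1, Ccne2, E2f1, Foxm1 and Cdkn1a).

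Cells license their replication origins in G1, when Cdc6 and Cdt1 load the ring-shaped MCM helicase, and fire them in S phase with the help of Cdc45, the GINS complex and Mcm10. The cyclins D and E push cells through G1 by releasing the E2F transcription factors, which switch on replication genes, whereas mitosis genes peak later, under Foxm1 and related factors. Cdkn1a, encoding p21, inhibits the cyclin-dependent kinases and is a classic p53 target. In the embryonic lung, dividing cells are concentrated in the epithelial tips of the growing branches.

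The libraries came from epithelial tips of embryonic lung from E10.5 to E13.5 (n = 4, 1 library a day) and from 10 organoids labelled by start stage (E9.5, E10.5, E11.5, E13.5 or E14) and days of culture (11 to 32). A separate table held 1 intact organoid and 8 pieces: 4 larger ones, labelled up-half, down-half, left-half and right-half, and 4 smaller ones, labelled up-half-left, up-half-right, down-half-left and down-half-right. Another held 4 libraries labelled LO (day 8, day 11, day 18, and day 11 with DCI), and another 5 libraries labelled 2C, 2C+F10, 2C+MTG, 2C+VC and ALL. The last held ALL and the omissions ALL-VC, ALL-MTG and ALL-FGF10 (n = 2 each). The labels do not define LO, DCI, 2C, F10, MTG, VC or ALL, nor name the strain, and give no genotype or genetic change for any group. A plus sign is read here as an addition and a minus sign as an omission. Nothing in the labels tells separate animals or cultures from repeats of 1 culture, so p-values reflect the spread among these libraries, which may be technical.

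Levels are in TPM, transcript abundance scaled for gene length and to a fixed total per library. Sequencing depth is therefore unknown. Differences are of log2(TPM + 1), which understates change in genes of low abundance. Libraries listed 13036 to 14418 genes at 1 TPM or more. In all 40 libraries the 6 epithelial markers were listed above 0. The tips also carried markers of other cells: 6 red blood cell genes summed to 1752.53 to 9536.88 TPM in tips and to 0 to 1.28 TPM in organoids. The 6 mesenchymal markers, Col1a1, Col1a2, Col3a1, Dcn, Pdgfra and Pdgfrb, summed to 90.9 to 188.68 TPM in tips, and 4 endothelial markers to 4.23 to 22.6 TPM. In organoids they ran from 2.87 TPM to 190.48 in the E10.5 organoid of 32 days and 317.55 in that of 11 days. In such bulk RNA, fewer dividing cells and less of these transcripts per cell cannot be told apart.

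In promoter sequence the replication and mitosis genes differed. RefSeq windows of 250 bases before to 50 after a start site (GRCm38.p6) were found for 35 of the 46 genes, as 38 windows. The motifs searched on both strands were the CHR element of late cell cycle promoters (TTTGAA or TTCGAA), the CCAAT box (CCAAT) and an E2F site (TTTCCCGC, TTTCGCGC, TTTGGCGC or TTTGCCGC). The CHR letters occurred in 14 of 18 mitosis windows (77.8%), 3 of 16 replication windows (18.8%) and 19.2% of all 32851 windows. The E2F letters occurred in 7 of 16 replication windows (43.8%), 1 of 18 mitosis windows (5.56%) and 2.26% of all windows. The 16 replication windows cover 14 genes, as Mcm7 and Uhrf1 have more than 1 window and Mcm4 and Gins2 have none. The 18 mitosis windows cover 18 genes. A CCAAT box stood in 16 mitosis windows (88.9%), 13 replication windows (81.2%) and 37.4% of all. None of the 3 motifs was found in the 4 windows of G1 and control genes, which cover only 3 genes, Ccne1, E2f1 and Cdkn1a. The E2f1 window (154569377 to 154569676, minus strand) lies wholly within the gene as annotated by GENCODE (154559407 to 154569892). It thus holds no sequence upstream of that annotated start. These matches are a description of letters, not of bound factors. The 6 windows below show the contrast, 3 replication genes with E2F letters and 3 mitosis genes with CHR letters, and were chosen after the matches were seen. Each is written 5′ to 3′ on the gene's own strand. Capitals mark every match to any of the 3 motifs on either strand. In Mcm6 a pair of E2F matches overlap, and in Ube2c a pair of CCAAT matches do.
Mcm3, chr1:20820263-20820562, minus strand: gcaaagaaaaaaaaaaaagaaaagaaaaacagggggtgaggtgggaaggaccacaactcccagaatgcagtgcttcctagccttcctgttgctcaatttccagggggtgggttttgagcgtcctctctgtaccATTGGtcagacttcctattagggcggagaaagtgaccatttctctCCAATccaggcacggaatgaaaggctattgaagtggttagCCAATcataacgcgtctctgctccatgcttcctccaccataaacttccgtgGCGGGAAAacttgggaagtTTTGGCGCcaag
Mcm6, chr1:128359656-128359955, minus strand: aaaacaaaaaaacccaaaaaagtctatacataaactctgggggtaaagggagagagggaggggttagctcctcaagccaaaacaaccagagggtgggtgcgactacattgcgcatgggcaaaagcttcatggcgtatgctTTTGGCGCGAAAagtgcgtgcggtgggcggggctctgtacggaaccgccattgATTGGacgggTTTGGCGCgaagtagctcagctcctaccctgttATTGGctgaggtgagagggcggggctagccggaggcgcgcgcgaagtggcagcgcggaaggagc
Cdc6, chr11:98907901-98908200, plus strand: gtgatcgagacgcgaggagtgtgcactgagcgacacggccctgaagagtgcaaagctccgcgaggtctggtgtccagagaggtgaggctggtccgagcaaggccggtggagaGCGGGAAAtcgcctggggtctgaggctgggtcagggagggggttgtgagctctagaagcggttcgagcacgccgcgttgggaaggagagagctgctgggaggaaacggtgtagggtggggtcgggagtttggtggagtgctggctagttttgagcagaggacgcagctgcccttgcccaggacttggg
Plk1, chr7:122159185-122159484, plus strand: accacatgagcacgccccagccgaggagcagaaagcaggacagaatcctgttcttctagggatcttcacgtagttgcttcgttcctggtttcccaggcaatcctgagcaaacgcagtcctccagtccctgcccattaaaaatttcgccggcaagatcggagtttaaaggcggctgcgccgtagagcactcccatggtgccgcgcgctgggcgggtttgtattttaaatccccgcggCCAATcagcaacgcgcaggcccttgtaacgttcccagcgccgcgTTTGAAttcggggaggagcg
Ube2c, chr2:164769679-164769978, plus strand: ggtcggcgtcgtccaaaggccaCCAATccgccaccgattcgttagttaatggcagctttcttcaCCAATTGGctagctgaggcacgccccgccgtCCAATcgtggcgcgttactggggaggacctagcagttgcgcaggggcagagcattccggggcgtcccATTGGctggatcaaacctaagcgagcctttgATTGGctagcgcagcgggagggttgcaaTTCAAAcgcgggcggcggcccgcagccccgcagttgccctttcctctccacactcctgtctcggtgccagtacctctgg
Bub1, chr2:127831810-127832109, minus strand: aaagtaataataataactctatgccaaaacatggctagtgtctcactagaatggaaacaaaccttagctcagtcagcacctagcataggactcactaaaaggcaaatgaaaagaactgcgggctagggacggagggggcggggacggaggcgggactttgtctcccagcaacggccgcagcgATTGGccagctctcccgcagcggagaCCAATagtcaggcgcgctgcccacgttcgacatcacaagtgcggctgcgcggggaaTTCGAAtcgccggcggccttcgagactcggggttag
Counted from the RefSeq start site, the E2F matches began at 20 and 39 in Mcm3, at -110, -106 and -47 in Mcm6 and at -138 in Cdc6. By GENCODE the Cdc6 gene starts earlier, at 98907801, so that its whole window lies within the gene. The CHR matches began at 31 in Plk1, at -29 in Ube2c and at 15 in Bub1.

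The first question was how far cycle genes in cultured organoids differ from those in embryonic tips. All 16 replication genes and all 23 mitosis genes were lower in organoids, by medians of -2.24 and -2.02 on the log2 scale, against -0.20 over all genes tested. Every one of the 39 was lower in each of the 10 organoids than in each of the 4 tips. Of the other 7, 6 were lower and Cdkn1a was higher. The contrast was broad: limma called 61.9% of 16779 genes at Benjamini-Hochberg adjusted p under 0.05, 40.2% lower and 21.7% higher, against 45 of the 46 lower and 1 higher. Without overlap between groups were 45 of the 46 and 41.8% of all genes. Ccnd2 was the exception.

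Of the replication genes, Cdc6, Rrm2, Uhrf1 and Mcm2 differed most. Cdc6, which loads the helicase (chromosome 11, 98907801 to 98923940, GRCm38), was at 49.7 ± 7.05 TPM (SD, n = 4) in tips, of which the lowest, E11.5, had 43.42. In organoids it ran from 4.12 through a median of 5.98 to 8.22 TPM, so the groups lay far apart. The difference was -2.86 ± 0.15 (SE, adjusted p = 8.8e-10). Rrm2, the regulated subunit of the reductase that makes deoxynucleotides (chromosome 12, 24708241 to 24714146), was at 205.53, 203.81, 243.41 and 186.94 TPM in tips and at 17.76 to 41.31 in organoids (median 28.34, difference -2.83 ± 0.17, adjusted p = 3.2e-09). Uhrf1, which carries DNA methylation through replication (chromosome 17, 56303321 to 56323486), fell from 199.7 ± 17.4 (SD, n = 4) to 31.3 ± 7.89 TPM (SD, n = 10), a difference of -2.67 ± 0.18 (adjusted p = 6.5e-09). Mcm2, a helicase subunit (chromosome 6, 88883474 to 88898780), was at 150.05, 157.44, 167.29 and 154.56 TPM in tips and at 15.64 to 37.73 in organoids (median 28.88, difference -2.55 ± 0.21, adjusted p = 7.1e-08). The other helicase subunits ranged from -2.52 for Mcm5 and -2.43 for Mcm3 to -2.23 for Mcm4, -2.21 for Mcm7 and -2.09 for Mcm6. The firing factors Mcm10 and Cdc45 were lower by -2.34 and -2.24, and the licensing factor Cdt1 by -2.07. Smaller differences were found for Tyms, the thymidylate synthase gene (-1.88), Rrm1, the large reductase subunit (-1.70), and the fork clamp gene Pcna (-1.70). The GINS subunit gene Gins2 had the smallest of the 16, at -1.33 ± 0.12 (adjusted p = 1.9e-07).

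**Figure D1:**
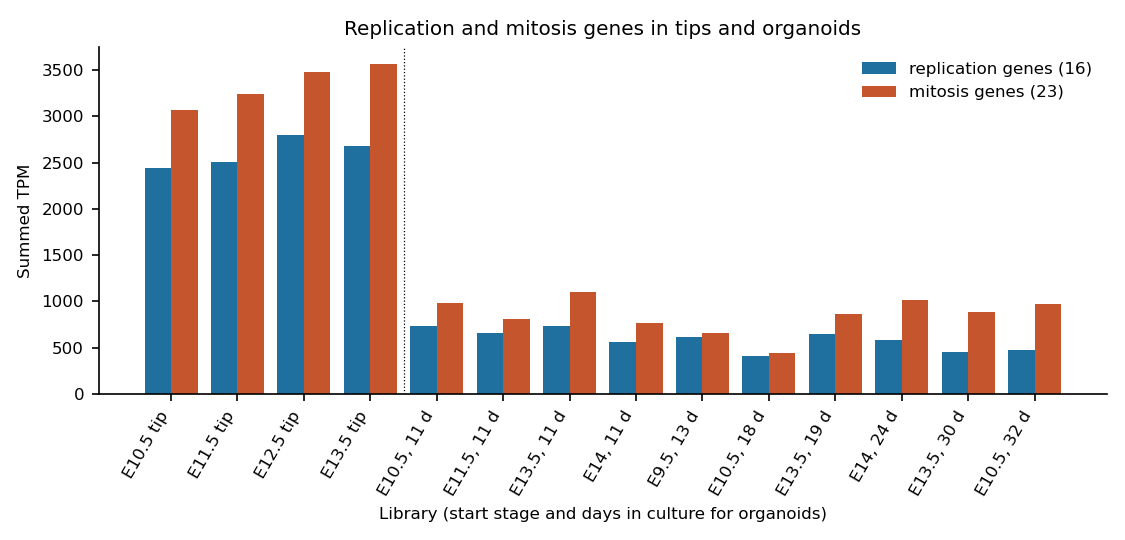
Summed TPM of the 16 replication and the 23 mitosis genes (bars) in each of 4 tip and 10 organoid libraries, organoids ordered by days in culture. Tips hold 2443 to 2796 TPM of replication and 3065 to 3573 of mitosis transcripts, organoids 415.3 to 737.4 and 438.7 to 1098.

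Among mitosis genes the gap was widest for Plk1, the polo-like kinase of mitotic entry and spindle assembly (chromosome 7, 122159439 to 122169873). It was at 128.03, 131.27, 146.43 and 139.44 TPM in tips and at 13.49 to 31.34 TPM in organoids (median 24.36, difference -2.49 ± 0.17, adjusted p = 8.3e-09). Ube2c, the ubiquitin-conjugating enzyme of the anaphase promoting complex (chromosome 2, 164769898 to 164778822), was at 375.43, 408.35, 428.82 and 475.86 TPM in tips and 44.97 to 112.35 in organoids (median 82.54, difference -2.36 ± 0.18, adjusted p = 2.6e-08). Bub1, a spindle checkpoint kinase (chromosome 2, 127801122 to 127831865), was at 64.95, 77.21, 78.25 and 79.16 TPM in tips and 9.80 to 18.93 in organoids (median 13.48, difference -2.35 ± 0.14, adjusted p = 3.4e-09). For all 3 the lowest tip stood well above the highest organoid. The remaining kinases Aurka (-2.21), Aurkb (-2.06), Bub1b (-1.91) and Pbk (-1.59), and Birc5, encoding the survivin subunit of the Aurora B complex (-2.07), were lower too. So were the spindle and cytokinesis genes Tpx2 (-2.27), Kif20a (-2.27), Kif11 (-2.02), Nusap1 (-1.93) and Kif23 (-1.40), the last the smallest difference of the 23. The mitotic cyclin genes Ccnb1 (-2.21), Ccna2 (-1.98) and Ccnb2 (-1.58) and their kinase gene Cdk1 (-1.75) were lower as well. The topoisomerase gene Top2a was lower by -2.12, and Cdc20, an activator of the anaphase promoting complex, by -2.04. The centromere genes ran from -2.01 for Cenpf and -1.90 for Cenpa to -1.59 for Cenpe.

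Mki67, the standard proliferation marker (chromosome 7, 135689784 to 135716361), gave a smaller difference than most. It was at 98.16, 99.58, 114.38 and 123.72 TPM in tips and at 19.20 to 53.48 TPM in organoids, with a median of 43.39. The groups did not overlap, and the difference was -1.44 ± 0.22 (adjusted p = 3.2e-05). Only Kif23 differed less among the 23 mitosis genes.

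Of all 46 genes, Ccnd1, Ccnd2 and Ccne1 differed most. Ccnd1, encoding cyclin D1 (chromosome 7, 144929931 to 144939925), was at 258.58, 253.82, 267.83 and 272.18 TPM in tips and at 11.30 to 29.75 TPM in organoids (median 21.61, difference -3.58 ± 0.20, adjusted p = 1.4e-09). Ccnd2, encoding cyclin D2 (chromosome 6, 127125162 to 127152193), was at 113.88, 108.57, 80.14 and 74.05 TPM in tips and at 0.82 to 122.99 in organoids (median 10.31, difference -3.33 ± 0.88, adjusted p = 0.0039). A single organoid, from E14 at 11 days, stood at the level of the tips. The cyclin E genes were lower without overlap: Ccne1 went from 59.3 ± 8.34 (SD, n = 4) to 6.32 ± 2.52 TPM (SD, n = 10, difference -3.13 ± 0.28, adjusted p = 1.4e-07). Ccne2 went from 40.5 ± 7.16 to 8.05 ± 3.09 TPM (-2.27 ± 0.27, adjusted p = 3.2e-06). The transcription factor genes changed less. E2f1 was at 24.20 to 29.25 TPM in tips and 4.45 to 12.19 in organoids (-1.54 ± 0.19, adjusted p = 3.6e-06), and Foxm1 at 50.95 to 63.54 and 10.92 to 24.51 TPM (-1.73 ± 0.20, adjusted p = 2.6e-06).

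Cdkn1a (chromosome 17, 29090976 to 29100727) moved the other way. It was listed at 21.76, 14.80, 8.25 and 2.55 TPM in tips from E10.5 to E13.5 and at 33.02 to 100.95 TPM in organoids, with a median of 47.03. The lowest organoid thus lay above the highest tip, and the difference was 2.34 ± 0.40 (adjusted p = 1.2e-04).

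Other genes of the pathway were listed with earlier results of these data known. Of 33 further replication genes, 33 were lower, with Gins1 (-2.56), the replication checkpoint adaptor Clspn (-2.30) and the licensing inhibitor Gmnn (-2.23) differing most. Of 43 further mitosis genes, 42 were lower and 1 higher, with Cdca8 (-2.56), the separase gene Espl1 (-2.31) and Cdca5 (-2.19) differing most. Among 18 further G1 control genes 14 were lower and 2 higher. Of 6 other inhibitors of cyclin-dependent kinases, 3 were higher and 2 lower: Cdkn2b rose by 4.27 and Cdkn2c by 2.05, and Cdkn1c differed by -4.63. Of 13 p53 targets, 12 were tested, 7 were higher and 2 lower, led by Gdf15 (2.51), Btg2 (1.69) and Trp53inp1 (1.68).

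The same 46 members were called when any tip was left out, when only the 5 organoids of 11 to 13 days were kept, and without the organoid highest in mesenchymal markers. Rescaling each library by its median ratio moved the median of all genes from -0.20 to 0.06, and the genes called higher from 3640 of 10392 (35%) to 5070 of 10318 (49.1%). On that scale the medians were -1.93 for replication and -1.72 for mitosis genes. The share of blood transcripts in tips moved with the groups and its part was not tested. Among tips, E13.5 had the least red blood cell signal (1752.53 TPM) and the largest mitosis sum (3573 TPM), whereas E12.5, with the most (9536.88 TPM), had the largest replication sum (2796 TPM) and a mitosis sum of 3485 TPM. The share of TPM in mitochondrial genes also separated the groups, at 6.54% to 8.29% in tips and 11.3% to 15.2% in organoids, and its part was not tested.

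**Figure D2:**
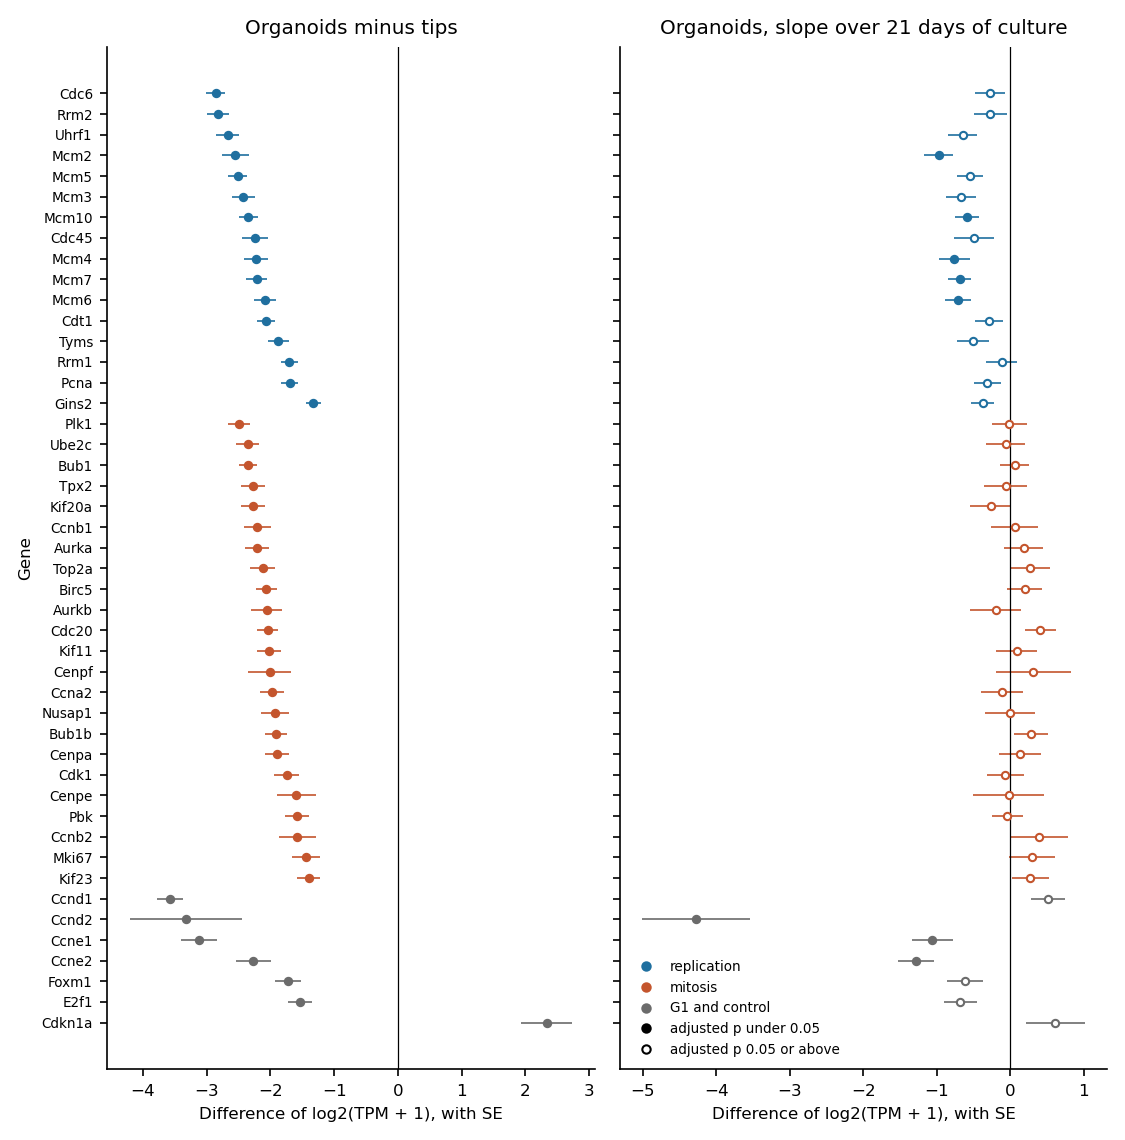
Difference of log2(TPM + 1) with its standard error for each of the 46 genes: organoids (n = 10) minus tips (n = 4) on the left, and the slope within organoids over 21 days of culture on the right. Filled points have adjusted p under 0.05: 46 on the left, and on the right 5 replication genes, Ccnd2, Ccne1 and Ccne2.

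Within the tips, whether cycle genes change from E10.5 to E13.5 was asked of 4 libraries, 1 per day. None of the 46 was called, where limma called 0.733% of all genes, and 1 of the 46, Cdkn1a, had an unadjusted p under 0.05. Cdkn1a was lower at each later day, from 21.76 to 2.55 TPM, a slope of -2.64 ± 0.63 over 3 days (adjusted p = 0.088). Of the most abundant members, Pcna was at 359.02, 358.30, 409.87 and 384.02 TPM, Mcm7 at 242.33, 235.98, 292.20 and 240.74, its E12.5 value standing apart, and Mcm6 at 217.09, 221.55, 232.88 and 242.77. Ube2c (375.43 to 475.86 TPM), Top2a (349.74 to 427.71) and Cdk1 (300.77 to 397.29) had their highest values at E13.5. Their slopes, 0.33 ± 0.42, 0.28 ± 0.42 and 0.39 ± 0.40, were within their errors. Mcm2 had a slope of 0.06 ± 0.32 and Mki67 of 0.36 ± 0.49. Medians were 0.18 for replication and 0.24 for mitosis genes, against -0.03 over all genes.

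Across organoids, 5 of 16 replication genes and none of 23 mitosis genes were called lower at later culture days, and the 5 calls were lost without the 32-day organoid. The replication genes had a median slope of -0.53 over 21 days and all 16 slopes were below 0, where 33% of all genes had a slope above 0. The mitosis genes had a median of 0.06, with 13 above 0 and 10 below. Limma called 8 members, all lower with time, where 9.64% of all genes were called and 6.67% were called lower: 5 of 16 replication genes, none of 23 mitosis genes (also none at an unadjusted p under 0.05), and Ccnd2, Ccne1 and Ccne2. The difference between the replication and mitosis groups was itself not tested. Over all genes the median slope was -0.17.

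Mcm2 showed the steepest slope of the replication genes. It was at 37.73, 32.90, 34.40 and 27.31 TPM in the organoids of 11 days from E10.5, E11.5, E13.5 and E14, and at 31.59 at 13 days from E9.5. Later values were 17.59 at 18 days, 30.30 at 19, 27.46 at 24, 16.31 at 30 and 15.64 at 32 days. The last 2 were lowest and the 18-day library lay near them (slope -0.98 ± 0.20, adjusted p = 0.012). Mcm4 ran from 34.49 to 41.74 TPM over the 4 organoids of 11 days, was lowest at 18 days (17.16 TPM) and was at 22.36 and 21.71 TPM at 30 and 32 days (-0.76 ± 0.21, adjusted p = 0.041). Mcm6 ran from 56.92 to 73.08 TPM at 11 days and was at 70.28, 36.73, 51.69 and 48.49 TPM at 13, 18, 19 and 24 days. At 30 and 32 days it was at 36.03 and 43.98 TPM (-0.71 ± 0.18, adjusted p = 0.027). Mcm7 (-0.69, adjusted p = 0.020) and Mcm10 (-0.58, adjusted p = 0.042) were also called. Mcm3, Uhrf1 and Mcm5 had slopes of -0.67, -0.65 and -0.54 that missed the threshold (adjusted p = 0.063, 0.056 and 0.073). Rrm1, with -0.12 ± 0.21, and Rrm2, with -0.27 ± 0.23, had slopes close to 0.

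**Figure D3:**
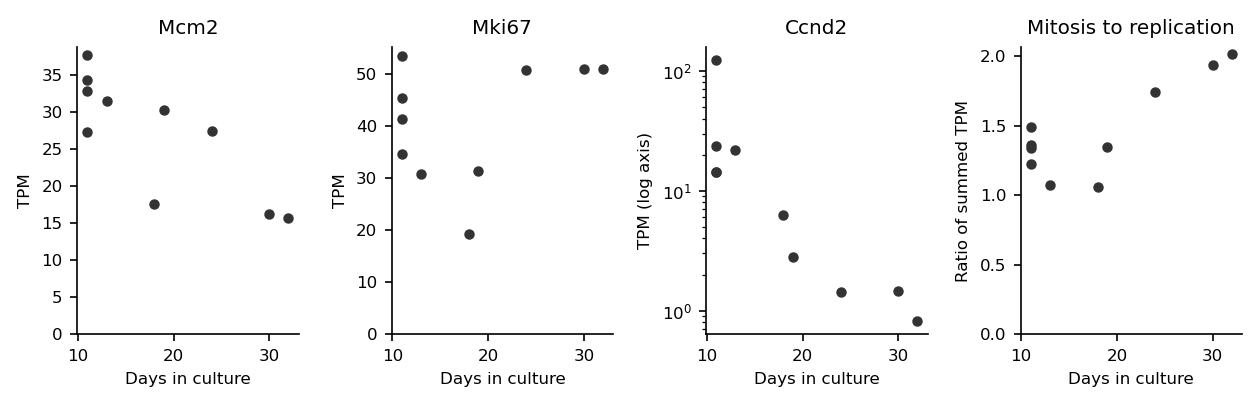
TPM of Mcm2, Mki67 and Ccnd2 (log axis), and the ratio of summed mitosis to summed replication TPM, against days in culture for 10 organoids, 1 point each. Mcm2 is lowest at 30 and 32 days (16.31 and 15.64 TPM), Mki67 is at 50.82 to 51.00 TPM from 24 days on, Ccnd2 ends at 0.82 TPM, and the ratio is highest at 30 and 32 days (1.94 and 2.02).

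Among the mitosis genes, Mki67 and the most abundant members had slopes within their errors. Mki67 was at 53.48, 34.54, 45.46 and 41.31 TPM in the 11-day organoids and at 30.84 at 13 days, 19.20 at 18 and 31.29 at 19 days. At 24, 30 and 32 days it was at 50.82, 50.93 and 51.00 TPM, above every younger organoid but the one from E10.5 at 11 days (slope 0.29 ± 0.32, adjusted p = 0.61). Cdk1 ran from 99.58 to 141.63 TPM at 11 days and was at 124.03, 99.26 and 113.05 TPM at 24, 30 and 32 days (slope -0.07 ± 0.25). Top2a ran from 77.61 to 125.85 TPM and then stood at 105.16, 109.88 and 113.36 (slope 0.27 ± 0.27). Ube2c ran from 75.32 to 112.35 TPM and then stood at 100.55, 70.68 and 94.49 (slope -0.06 ± 0.27). For Cdk1 and Top2a the 3 oldest organoids lay within the range of those of 11 to 13 days, and for Ube2c the 30-day organoid lay just under it. The organoid of 18 days was the lowest of the 10 for 21 of the 23 mitosis genes.

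The sums of TPM can be set side by side. Mitosis transcripts amounted to 1.07 to 1.49 times the replication transcripts in the organoids of 11 to 13 days, 1.06 at 18 days and 1.35 at 19 days. At 24, 30 and 32 days the ratio was 1.74, 1.94 and 2.02, above every younger organoid and above the tips, which had 1.25 to 1.33. The sums are weighted to abundant genes and no test was made on them.

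The cyclin D and E genes had unlike slopes. Ccnd2 was at 23.79, 14.40, 14.34 and 122.99 TPM at 11 days and 21.68 at 13 days. It was then at 6.28 at 18 days, 2.79 at 19, 1.42 at 24, 1.47 at 30 and 0.82 TPM at 32 days, a slope of -4.28 ± 0.74 (adjusted p = 0.0053), the steepest of the 46. Ccne2 was at 8.20 to 12.97 TPM at 11 days, at 6.30 to 10.22 from 13 to 24 days and at 4.61 and 2.87 TPM at 30 and 32 days (-1.28 ± 0.24, adjusted p = 0.0080). Ccne1 was at 6.18 to 8.66 TPM at 11 days, 6.07 at 13 and 3.77 at 18 days. It was highest at 19 days (9.98 TPM), then at 7.86 at 24 days and lowest at 30 and 32 days (3.67 and 2.06 TPM), a slope of -1.06 ± 0.28 (adjusted p = 0.034). Ccnd1 had a slope of 0.51 ± 0.23 that was not called (adjusted p = 0.18). Cdkn1a varied without a called slope (0.61 ± 0.40, adjusted p = 0.38), with its highest values in the E9.5 organoid of 13 days (100.95 TPM) and the E13.5 organoid of 30 days (97.03 TPM). Among related genes, 4 of 33 further replication genes were lower (Pole2, -1.09, led them), 1 of 43 further mitosis genes (Cks1b, -0.49) and 6 of 18 further G1 genes, with Ccnd3 (-1.18) and Cdk4 (-0.88) lowest. Cdkn2a (2.15) and Cdkn2b (1.63) were higher and Cdkn1c lower (-4.04).

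How many members were called depended on single libraries. Without the 32-day organoid from E10.5, which also held 190.48 TPM of mesenchymal markers, 1 member was called, Ccnd2, and the mitosis median was -0.31 in place of 0.06. Leaving out other single organoids gave 4 to 11, and after median-ratio rescaling 3 were called: Ccnd2, Ccne2 and Mcm2. That rescaling moved the median of all genes from -0.17 to 0.00 and the share of called genes that were higher from 30.8% to 59.8%, with medians of -0.32 for replication and 0.27 for mitosis genes.

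Start stage, from E9.5 to E14, was fitted beside culture time. None of the 46 was called, where 0.0536% of all genes were, and 5 of the 46 had an unadjusted p under 0.05. That last count ran from 1 to 13 when single organoids were left out, and all genes were not counted at this threshold. Mitosis genes had a median slope of 0.38 over the 4.5 days, and all 23 were above 0. Over all genes the median was -0.0056 and 48.6% of slopes were above 0. Pbk (0.63 ± 0.21) and Cdk1 (0.62 ± 0.25) were more than 2 SE above 0, with adjusted p of 0.54 and 0.61. Top2a had 0.44 ± 0.27, Ube2c 0.30 ± 0.26 and Mki67 0.37 ± 0.31. Replication genes had a median of 0.14, with Mcm2 at 0.17 ± 0.20, Pcna at 0.15 ± 0.18, Mcm7 at 0.31 ± 0.16 and Tyms at -0.07 ± 0.21. Cdkn1a had -0.19 ± 0.40.

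The 4 LO libraries form a time course and a DCI treatment without replicates, and they were compared by size of difference with no test run. Most cycle genes stood somewhat below their day 8 levels at day 11 and well below them at day 18. At day 11, 41 of the 46 were below day 8. The medians were -0.30 for replication and -0.29 for mitosis genes, against -0.10 for all genes. A gene was counted where log2(TPM + 1) differed by at least 1 with at least 5 TPM in the higher library. At day 11 this held for 1 of the 46, Ccnd1, at 66.51 TPM at day 8 and 29.61 at day 11 (-1.14), against 2.87% of genes lower and 5.25% in either direction. At day 18 it held for 39 of the 46, all lower than day 8, against 1435 of 11514 genes lower, 7.44% of genes higher and 19.9% in either direction. The 39 were 14 replication genes, 20 mitosis genes and 5 of the G1 group.

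Replication genes at day 8, day 11 and day 18 read 196.53, 155.51 and 85.72 TPM for Pcna, and 128.05, 116.16 and 40.00 for Mcm6. Mcm7 was at 104.35, 97.97 and 46.50 TPM and Mcm2 at 57.85, 47.33 and 18.56 TPM, a difference of -1.59 from day 8 to day 18. Each was lowest at day 18. In the mitosis group Cdk1 was at 151.14, 120.53 and 58.70 TPM, Top2a at 127.36, 96.68 and 53.22, and Ube2c at 109.80, 104.00 and 44.14. Mki67 was at 54.46, 42.60 and 22.49 TPM (-1.24). Medians of the differences were -1.29 for replication and -1.24 for mitosis genes, against -0.26 for all genes, so that the ratio of mitosis to replication sums, 1.08, 1.11 and 1.12, hardly moved. Ccnd2 differed most, at 61.02, 35.13 and 7.09 TPM (-2.94). Cdkn1a was at 44.89, 39.14 and 30.53 TPM. After median-ratio rescaling 25 of the 46 remained past the fold at day 18.

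With DCI nearly all cycle genes were lower. In the day 11 library with DCI, 43 of 46 members were lower and 1 higher than in day 11 without it, against 13% of genes lower, 11.2% higher and 24.2% in either direction. All 23 mitosis genes and 15 of 16 replication genes were past the fold. Mitosis genes differed by a median of -2.66 and replication genes by -1.90, with -0.08 for all genes. The mitosis sum was 1005.12 TPM without and 157.79 TPM with DCI, and the replication sum 906.61 and 255.43 TPM, a ratio of mitosis to replication of 1.11 and 0.62, the latter the lowest of the 40 libraries.

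Mki67 read 42.60 TPM without DCI and 3.86 with it (-3.17), Top2a 96.68 and 11.05 (-3.02), Cdk1 120.53 and 24.70 (-2.24) and Ube2c 104.00 and 22.03 TPM (-2.19). The spindle gene Nusap1, at 24.90 and 1.82 TPM, had the largest mitosis difference (-3.20). Of replication genes, Uhrf1 differed most, at 42.54 and 3.49 TPM (-3.28), and was chosen here after its value was seen, as was Nusap1. Pcna was at 155.51 and 65.86 TPM (-1.23), Mcm6 at 116.16 and 25.85 (-2.13), Mcm7 at 97.97 and 27.44 (-1.80) and Mcm2 at 47.33 and 10.20 (-2.11). Gins2, at 30.48 and 21.09 TPM (-0.51), was the replication gene that did not pass the fold, and its day 18 difference (-0.34) was also the smallest of the 46. Ccnd1 (29.61 and 15.90 TPM, -0.86) was the other member that did not. Cdkn1a was at 39.14 TPM without and 195.44 TPM with DCI (2.29), its highest level in any of the 40 libraries, though tables were normalized separately.

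Of the related genes, 29 of 33 further replication genes and 39 of 43 further mitosis genes were lower past the fold with DCI, and none was higher. Epithelial markers summed to 1654.82 TPM without and 1975.17 with DCI, and mesenchymal markers to 68.88 and 64.32. The mesothelial list summed to 6.19 TPM without and 277.23 with DCI, all of it Msln, with Wt1 and Upk3b listed at 0. The part of such other cells in the result was not tested.

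**Figure D4:**
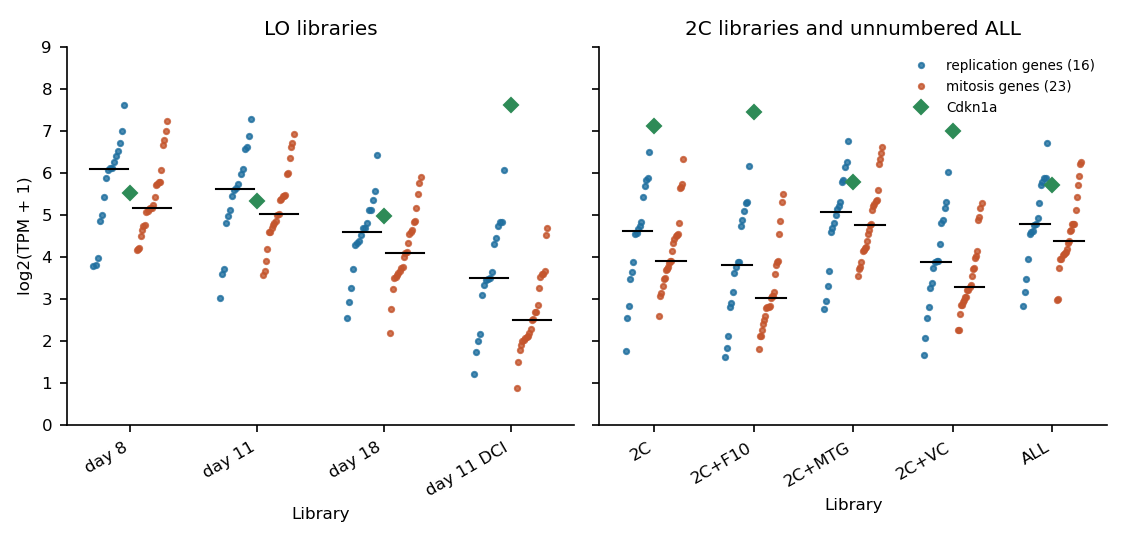
log2(TPM + 1) of 16 replication genes, 23 mitosis genes (1 point per gene, sorted within a library, median as a black line) and Cdkn1a (diamonds) in 4 LO libraries and in 2C, its additions and the unnumbered ALL library. Both groups of genes are lowest and Cdkn1a is highest in the day 11 library with DCI (195.44 TPM), and 2C+MTG and ALL share low Cdkn1a (54.38 and 51.60 TPM).

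Additions to 2C were compared in single libraries, again without a test, and all 4 comparisons share the 1 library of 2C. Of the 46, 43 lay below 2C with F10 and 42 with VC, and 44 lay above it with MTG, most of them by less than the fold. With VC, Ccnd1 (0.89) and Ccnb2 (0.75) lay above 2C, as did Mcm10 and E2f1, both by under 0.1. Mki67 was at 21.91 TPM in 2C, 7.20 in 2C+F10, 10.66 in 2C+VC, 37.48 in 2C+MTG and 26.83 in the ALL library of the same table. Mcm2 was at 22.40, 13.76, 13.98, 31.01 and 26.57 TPM in the same order. Cdkn1a read 137.63, 175.24, 127.44, 54.38 and 51.60 TPM, so 2C, 2C+F10 and 2C+VC stood apart from the 2 libraries with less.

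With F10, 14 members were lower past the fold, against 2.82% of genes lower and 5.9% in either direction: 11 mitosis genes, the replication genes Uhrf1 and Mcm5, and Ccne2. Mitosis genes differed by a median of -0.99 and replication genes by -0.70, with 0.02 for all genes. Cdk1 was at 79.44 and 44.60 TPM, Kif23 at 52.07 and 38.57, Top2a at 49.28 and 28.21, Pcna at 89.44 and 70.97, Mcm7 at 57.59 and 38.84 and Mcm6 at 56.14 and 33.23 TPM in 2C and 2C+F10. Mki67 gave -1.48. Mesenchymal markers summed to 3.57 TPM in 2C and 97.26 in 2C+F10, and their part was not tested.

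With VC, 5 members were lower past the fold (3.8% of genes lower, 9.61% in either direction), the mitosis genes Cdk1, Aurkb, Cenpf and Pbk and the cyclin gene Ccnd2. The medians were -0.77 for mitosis and -0.62 for replication genes, against -0.10. Cdk1 was at 35.06 TPM in 2C+VC, Kif23 at 37.82, Ube2c at 30.25 (49.49 in 2C), Pcna at 63.91, Mcm7 at 35.10 and Rrm1 at 38.47 (50.44 in 2C). The differences of the last 5 lay under the fold, and the count of members was 11 with a pseudocount of 0.1 and 2 after median-ratio rescaling.

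With MTG, 4 members were higher and 2 lower past the fold, against 2.59% of genes higher, 4.93% lower and 7.52% in either direction. The higher ones were Cdc6, Rrm2, Ccnb2 and Birc5, and the lower ones Ccnd2 (52.10 TPM in 2C and 12.58 with MTG) and Cdkn1a. All 16 replication and all 23 mitosis genes lay above 2C, by medians of 0.40 and 0.68, against -0.13. Cdk1 was at 88.04 TPM, Ube2c at 96.87, Top2a at 79.65, Pcna at 108.15, Mcm6 at 75.80 and Mcm7 at 69.25 TPM in 2C+MTG. The unnumbered ALL library gave 3 higher and 2 lower than 2C (4.89% of genes higher, 7.44% lower, 12.3% in either direction), the higher ones Cdc6, Ccnb2 and Bub1 and the lower ones again Ccnd2 (10.76 TPM) and Cdkn1a. Its Cdk1 was at 73.06 TPM, Ube2c at 75.43, Top2a at 59.98, Pcna at 103.89, Mcm6 at 58.06 and Mcm7 at 53.91. Median-ratio rescaling gave 10 members past the fold for 2C+MTG and 9 for ALL.

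The omissions had 2 libraries per group, and the question was which members differ when FGF10, MTG or VC is left out. Cdkn1a, in ALL-VC, was the only member called against ALL. It was at 45.51 and 36.45 TPM in ALL, 74.55 and 92.41 in ALL-FGF10, 137.06 and 88.25 in ALL-MTG and 139.47 and 134.85 in ALL-VC. Every library of an omission was above both ALL libraries. The difference was 1.73 ± 0.23 for ALL-VC (adjusted p = 0.027), 1.41 ± 0.23 for ALL-MTG (adjusted p = 0.054) and 1.01 ± 0.23 for ALL-FGF10 (adjusted p = 0.089), and these 3 share the ALL libraries. Limma called 0.804% of 14802 genes for ALL-VC (0.209% higher), 0.513% for ALL-MTG and 1.83% for ALL-FGF10. The call in ALL-VC was lost without ALL replicate 2, without either ALL-VC replicate, without either ALL-FGF10 replicate, which enters through the shared spread, and without the filter on low values.

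In ALL-VC the mitosis genes lay above ALL by a median of 1.28 and the replication genes by 0.77, against 0.18 for all genes, but none was called. Of the 46, 33 had an unadjusted p under 0.05, a threshold at which all genes were not counted. In both ALL-VC libraries 20 of 23 mitosis genes and 8 of 16 replication genes were above both ALL libraries, as were 31.6% of all genes. Mki67 was at 22.91 and 7.73 TPM in ALL and at 41.12 and 34.66 in ALL-VC (1.42 ± 0.43, adjusted p = 0.18). Cdk1 was at 87.83 and 40.91 TPM in ALL and 126.94 and 87.03 in ALL-VC (0.80 ± 0.41, adjusted p = 0.36), so these groups overlapped. Top2a was at 56.09 and 22.11 against 137.27 and 84.17 TPM (1.58 ± 0.44, adjusted p = 0.15), and Ube2c at 51.64 and 30.03 against 129.28 and 79.23 (1.34 ± 0.31, adjusted p = 0.12). Mcm2 was at 18.48 and 10.57 TPM in ALL and at 34.62 and 23.55 in ALL-VC (0.98 ± 0.29, adjusted p = 0.18). Pcna was at 86.82 and 61.80 against 128.75 and 90.41 TPM (0.55 ± 0.23), Mcm6 at 42.43 and 27.65 against 70.96 and 44.56 (0.70 ± 0.28), and Mcm7 at 52.12 and 42.75 against 75.59 and 47.22 (0.33 ± 0.25).

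The ALL replicates lay far apart for these genes. Their mitosis sums were 546.04 and 255.28 TPM, and their mesenchymal markers 91.6 and 4.69 TPM. The ALL library without a number, in another table, had a mitosis sum of 638.52 TPM, Mki67 at 26.83 and Cdkn1a at 51.60 TPM. For ALL-VC against ALL, the mitosis median was 1.83 without ALL replicate 1 and 0.70 without ALL replicate 2. Each of these fits leaves 1 ALL library.

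Without FGF10, no member was called and 2 had an unadjusted p under 0.05, Cdkn1a and Bub1. Medians were 0.27 for mitosis and 0.12 for replication genes, against 0.10 for all genes. Mki67 was at 17.57 and 17.85 TPM, between the ALL replicates (0.37 ± 0.43), and so were Cdk1 at 47.68 and 61.79 (-0.14 ± 0.41), Ube2c at 46.78 and 40.85, Top2a at 37.97 and 38.96 and Mcm2 at 17.59 and 15.45 TPM (0.22 ± 0.29). Pcna, at 58.91 and 62.89 TPM (-0.26 ± 0.23), Mcm7, at 48.68 and 39.86, and Tyms, at 37.86 and 41.90, also overlapped with ALL. Both medians changed sign without ALL replicate 2, to -0.23 and -0.23, in a fit that leaves 1 ALL library.

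Leaving out MTG likewise gave no call, with 6 members at an unadjusted p under 0.05. The medians were 0.57 for mitosis and 0.52 for replication genes (0.07 for all genes). Mki67 was at 20.31 and 27.70 TPM (0.78 ± 0.43, adjusted p = 0.50), Mcm2 at 22.72 and 22.41 TPM (0.65 ± 0.29, adjusted p = 0.41) and Pcna at 95.81 and 115.00 TPM (0.51 ± 0.23, adjusted p = 0.40). Cdk1 was at 55.89 and 101.03 TPM, Top2a at 50.18 and 79.00, Ube2c at 44.52 and 56.83, Mcm6 at 44.76 and 53.83 and Mcm7 at 41.34 and 47.54. Of these, Mcm2, Mcm6 and Pcna were above both ALL libraries in both replicates, as were 19 of the 46 members and 20% of all genes. Cdkn1a was called after median-ratio rescaling and without ALL-MTG replicate 2. Replicate 1 of ALL-MTG held 179.83 TPM of mesenchymal markers and replicate 2 8.52 TPM. Of these markers, Col3a1 and Pdgfra were listed at 0 in both replicates, so the sums come from the rest of the list.

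**Figure D5:**
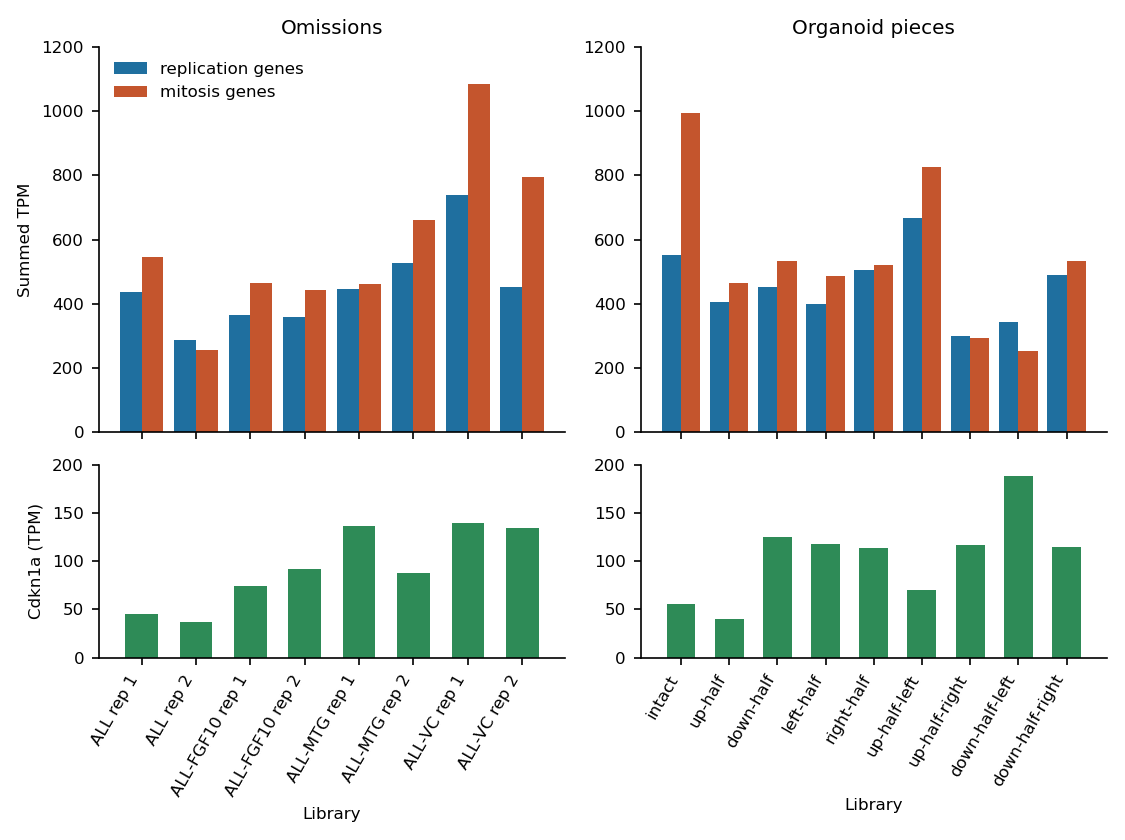
Summed TPM of replication and mitosis genes (upper bars) and TPM of Cdkn1a (lower bars) in the 8 numbered libraries of ALL and its omissions and in the intact organoid and the 8 pieces of the same table. The mitosis sum is highest in ALL-VC (1086 and 794.8 TPM) among omissions and in the intact organoid (993.5 TPM) among pieces.

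Between omissions no member was called. ALL-FGF10 stood below ALL-VC by medians of -1.004 for mitosis and -0.65 for replication genes, against -0.07 for all genes. At an unadjusted p under 0.05 were 23 members, and at an adjusted p under 0.05 were 3.82% of all genes. Shares of genes called are at adjusted p throughout, and all genes were not counted at the unadjusted threshold. Of the most abundant members Ube2c had the lowest adjusted p (-1.19 ± 0.31, adjusted p = 0.087), followed by Pcna (-0.82 ± 0.23, adjusted p = 0.10) and Top2a (-1.46 ± 0.44, adjusted p = 0.12). Mki67 differed by -1.05 ± 0.43, Mcm2 by -0.76 ± 0.29 and Cdkn1a by -0.72 ± 0.23. With only these 2 groups in the fit 19 members were called, but so were 2158 of 13760 genes, more than in the main fit. The count of members also changed without either ALL replicate, in fits that leave a single ALL library. Median-ratio rescaling moved the share of called genes that were higher from 50.8% to 61.3%. ALL-MTG against ALL-VC gave medians of -0.76 and -0.30 with 9 members at an unadjusted p under 0.05 (0.547% of genes called). ALL-FGF10 against ALL-MTG gave -0.29 and -0.37 with 4 (3.52% called), among them Ccnd2 at 0.71 and 1.19 TPM without FGF10 and 43.60 and 6.25 without MTG (-3.22 ± 0.78, adjusted p = 0.074). Of the further genes, Ccnd3, another cyclin D, was called lower in ALL-FGF10 than in ALL-MTG (-1.26, adjusted p = 0.010) and than in ALL-VC (-1.39, adjusted p = 0.0059).

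Organoid pieces were compared by size and side. The labels do not say which organoid each piece came from. None of the 46 was called for smaller against larger pieces, up against down or left against right, where 0% of 15017 genes were called, and 1, 2 and 0 members had an unadjusted p under 0.05. Whole libraries differed nevertheless. The mitosis sum was 993.52 TPM in the intact organoid, 463.76 to 534.30 TPM in the 4 larger pieces, and 827.13, 292.48, 253.88 and 533.93 TPM in up-half-left, up-half-right, down-half-left and down-half-right. The replication sum was 551.60 TPM in the intact organoid, 400.16 to 504.08 in the larger pieces and 666.23, 299.96, 341.59 and 488.37 in the smaller ones. The ratio of mitosis to replication was 1.80 in the intact organoid and 0.74 to 1.24 in the 8 pieces, so that the intact library, of which there was only 1, stood above every piece.

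By gene, Mki67 was at 47.17 TPM in the intact organoid, at 23.56, 20.92, 21.51 and 18.51 in up-half, down-half, left-half and right-half and at 34.76, 8.25, 8.16 and 21.22 in the smaller pieces, in the order given. Every piece lay below the intact organoid. Cdk1 was at 121.27 TPM intact, 65.18 to 79.61 in larger and 30.12 to 127.79 in smaller pieces, where up-half-left exceeded the intact organoid. Ube2c (103.94 TPM intact, 22.73 to 102.82 in pieces) was highest in the intact library, and Kif23 (86.20 TPM intact, 33.71 to 77.38 in pieces) was too. Mcm2 was at 27.90 TPM intact, 16.63, 19.52, 18.71 and 27.06 in larger pieces and 33.63, 10.98, 13.31 and 24.32 in smaller ones, so the intact value lay within the range of the pieces. Pcna (90.72 TPM intact, 64.15 to 113.09 in pieces), Mcm7 (57.25 TPM, 42.65 to 63.33) and Rrm1 (56.10 TPM, 28.21 to 66.49) did too. Cdkn1a was at 55.45 TPM intact and 40.22, 124.89, 117.99 and 113.78 in up-half, down-half, left-half and right-half, and at 69.88, 116.58, 188.28 and 114.61 in the smaller pieces. The fitted difference of up against down was -1.001 ± 0.34 for Cdkn1a (unadjusted p = 0.017, adjusted p = 1) and that of smaller against larger pieces 0.34 ± 0.29. Medians for smaller against larger pieces were -0.22 for mitosis and -0.07 for replication genes, for up against down 0.19 and 0.01, and for left against right 0.19 and 0.06. Over all genes the medians in the same order were -0.07, -0.08 and -0.03. The sign of the mitosis medians for up against down and left against right changed when single smaller pieces were left out, to -0.40 and -0.38.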

How the data were processed

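RNA-seq of 40 mouse libraries was deposited by the authors as 5 tables of TPM (transcript abundance scaled for gene length and to a fixed total) per gene symbol. Bowtie2, RSEM and the build mm10 are named in the submitters' processing notes, without versions. Total RNA, TRIzol, a VAHTS mRNA kit and an Illumina NovaSeq X Plus are named per the labels' protocols. TPM keeps no depth, so depth is unknown and only replicate spread measures precision. Titles tied 40 columns to samples, and 1 column was left out.

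Values were taken as log2(TPM + 1), for genes with at least 1 TPM in at least 2 libraries, and fitted over all genes with limma (3.58.1, R 4.3.3), two-sided, trend on, with Benjamini-Hochberg adjustment over all genes of a contrast. A gene was called at adjusted p under 0.05. Tips and organoids were compared by group and, in a second fit, by slopes of culture day, start stage and embryonic day. Single libraries had no test: a gene was past the fold at a log2 difference of at least 1 with at least 5 TPM in the higher library. Only the fits of organoids against tips and of ALL-VC against ALL were tried on simulated data. That simulation drew noise separately for each gene, and the slope and piece fits were not simulated. Other tools were Python 3.11.15, pandas 2.3.3, numpy 2.4.6 and matplotlib 3.10.9.

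The 46 genes and the other lists were chosen with earlier results of these data known. Described in full for each comparison were, in the replication and in the mitosis group, the 3 largest changes among called genes (else the 3 with the highest mean TPM), every other called member, and Mki67, Mcm2 and Cdkn1a, and from each further list at most 3 called genes. Coordinates are from GENCODE M21 (GRCm38). Alternatives were a pseudocount of 0.1, median-ratio rescaling, no filter, only the groups compared, a replicate block and each replicate left out. A further 2 were added after seeing the data: leaving out the organoid highest in mesenchymal markers, and leaving out the intact organoid.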

Additional observations from a re-analysis of the deposited data

Results flagged for a closer look

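A library was singled out where its gap to the nearest other library of a group of 4 to 10 exceeded Dixon's 95% limit. Of 184 groups of values tested, 6 met this, and chance gives about 1 in 20. Mcm7 stood at 292.2 TPM in the E12.5 tip, above 235.98 to 242.33 in the other tips. Bub1 was low in the E10.5 tip, at 64.95 TPM against 77.21 to 79.16. Ccnd2 was at 122.99 TPM in the E14 organoid of 11 days and at 0.82 to 23.79 TPM in the other 9. Ccnb1 was at 15.37 TPM in the E10.5 organoid of 18 days, below 32.71 to 47.88 TPM. Cdc6 was at 6.66 TPM in the right-half piece and at 3.8 to 4.07 in the other 3 larger pieces. Cdkn1a was at 40.22 TPM in the up-half piece and at 113.78 to 124.89 TPM in the other 3.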

How the results depend on the processing

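Of the counts of members, 147 alternatives stayed within 1.5 times the main count and 30 did not. For culture day, 8 members were called, 3 after median-ratio rescaling, 5 without the filter and 1 to 11 without single organoids. Against ALL, leaving out single libraries gave 0 to 3 members for ALL-FGF10, 0 to 1 for ALL-MTG and 0 to 29 for ALL-VC. Rescaling gave 1 for ALL-MTG, and no filter 0 for ALL-VC. ALL-FGF10 against ALL-VC gave 19 with only the 2 groups in the fit and 0 to 8 without single libraries. ALL-FGF10 and ALL-VC against ALL-MTG gave 0 to 1 each. Rescaling left 25 members past the fold for LO day 18 against day 8, 10 for 2C+MTG, 2 for 2C+VC and 9 for the unnumbered ALL. A pseudocount of 0.1 gave 11 for 2C+VC. With the replicate block the counts for the omissions were 0, 0, 1, 0, 0 and 0, as without it. The numbers did not pair the libraries (correlations of -0.07 to 0.11). The causes were not tested.

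Of single members, 929 alternatives kept direction and call, 44 lost and 11 gained the call, and 24 changed sign, all in differences that were not called. Leaving out single libraries gave these lowest and highest log2 differences. Mki67 ran from -0.068 to 0.49 for culture day (lowest without the E10.5 organoid of 32 days) and from -0.35 to 1.10 for ALL-FGF10 against ALL. Across pieces Mki67 ran from -0.97 to 0.037 by size, from -0.40 to 0.93 for up against down and from -0.40 to 0.95 for left against right. Mcm2 ran from -0.040 to 0.23 for embryonic day and from -0.16 to 0.60 for ALL-FGF10 against ALL. In pieces Mcm2 ran from -0.57 to 0.30 by size, from -0.64 to 0.54 for up against down (0.086 after rescaling, against -0.0079) and from -0.56 to 0.46 for left against right. Cdkn1a ran from -0.41 to 0.45 for start stage and from -0.39 to 0.43 for left against right. The causes were not tested. Depth could not be judged from TPM.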

Other observations

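Inhibitors of cyclin-dependent kinases other than Cdkn1a moved apart from one another. Cdkn1c, encoding p57, was at 564.73, 521.55, 511.27 and 369.24 TPM in tips from E10.5 to E13.5. In organoids it was at 25.65 to 94.17 TPM at 11 days, at 143.23 in the E9.5 organoid of 13 days and at 3.08 to 11.61 TPM from 18 days on, so the oldest organoids were lowest. Cdkn2b, encoding p15, was at 0.25 to 1.09 TPM in tips and at 13.07 to 16.36 TPM in organoids of 11 days. It was at 54.73 TPM in the E9.5 organoid of 13 days, within the 30.44 to 69.73 TPM found from 18 days on. Cdkn2a was listed at 0 in the 4 tips and the 4 organoids of 11 days, and at 1.80 to 5.46 TPM in the 4 organoids of 19 days and later. The organoid of 18 days was listed at 0 and that of 13 days at 1.66 TPM.

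In the LO libraries of day 8, day 11, day 18 and day 11 with DCI, Cdkn1c was at 299.71, 479.09, 11.42 and 187.33 TPM and Cdkn2b at 7.12, 9.01, 34.21 and 182.17 TPM. DCI and day 18 thus both had less Cdkn1c and more Cdkn2b than day 11. Of 13 p53 targets, 8 had at least 5 TPM in the higher library of the DCI comparison. Of these, 4 were higher past the fold (Sesn2, Fas, Btg2 and Bbc3), where 11.2% of all genes at that level were. For day 18 against day 8, 9 had at least 5 TPM and 2 were higher past the fold (Gdf15 and Btg2), where 7.44% were. Gdf15 stayed under 5 TPM with DCI and was not counted there. Gdf15 was at 0.33, 0.63, 6.53 and 3.28 TPM and Btg2, an antiproliferative gene, at 51.51, 51.96, 105.35 and 133.27 TPM in the same order.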
